A study of Mus musculus with 12 samples.

Results

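The genes described here encode 36 enzymes and carriers of urea production and amino acid metabolism, and they were taken by name: an array probe set was used if the platform annotation paired it with a single gene symbol on the list, and where a gene had several probe sets, that with the highest average log2 level on the 12 arrays was kept. Of the 36 genes, 34 were measured among 18193 genes tested on the array. These were all 7 listed urea cycle genes, 17 of 19 genes of amino acid breakdown, all 5 genes that move amino or one-carbon groups between amino acids, and all 5 genes of amino acid synthesis. Gls2 (liver glutaminase) and Sds (serine dehydratase) were not analysed here.

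The arrays came from female NOD/SCID mice, an immunodeficient strain without mature T and B cells, that were 8 to 10 weeks old. The 4 groups were liver of pregnant mice at day 16 of gestation, liver of virgin mice, lung of pregnant mice at that day and lung of virgin mice. Each group had 3 arrays, and each array held pooled RNA of 2 mice. A p-value thus sets the difference of group means against the spread between pools, not between single mice. That spread was estimated over all 4 groups together, and 3 arrays per group set the precision. All mice carried the same immune deficiency, and no mouse of another strain was compared.

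Breakdown of amino acids releases their nitrogen as ammonia or as the amino group of glutamate and aspartate, and the liver turns both into urea. The urea cycle begins in the mitochondria of hepatocytes with carbamoyl phosphate and ends in the cytosol with the release of urea from arginine. The aminotransferases link the breakdown pathways to the cycle through glutamate and aspartate. Serine is made from a glycolytic intermediate by Phgdh, Psat1 and Psph in turn, while Asns makes asparagine and Glul makes glutamine.

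Array medians lay between 4.49 and 4.56 on the log2 scale, and the arrays of a group correlated at 0.993 to 0.997 across genes. Control poly-A RNA, which is spiked in ahead of the labelling step, averaged 11.84 to 12.34 on 10 arrays, but 5.33 on the array of pregnant liver pool 3 and 4.95 on that of virgin liver pool 3. Liver changes are therefore also given within the arrays that carried spike-in signal and within the pair that did not. The 3′ minus 5′ signal of Gapdh, a sign of RNA quality, was 0.48 to 0.70 in pregnant and 0.26 to 0.60 in virgin liver. Hepatocyte markers passed the check of the tissue label: the summed level of 9 measured markers was 17.05 to 17.07 in pregnant and 17.01 to 17.02 in virgin liver (log2), and 10 lung epithelial markers summed to 9.47 to 9.52 in pregnant and 9.58 in virgin liver. In lung the epithelial markers summed to 16.74 to 16.80 in pregnant and 16.73 to 16.78 in virgin mice. Of the hepatocyte markers 1 of 9 rose in pregnant liver and 0 fell, and 0 of 10 lung epithelial markers passed the test in lung (limma, 0 at an unadjusted p under 0.05).

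In pregnant liver the enzymes of breakdown and amino group transfer that passed the test were lower, and the synthesis enzymes that passed it were higher. The test was limma's moderated comparison with Benjamini-Hochberg adjustment over all 18193 genes, with an adjusted p under 0.05 as the threshold. Of the 34 genes 6 fell (17.6%) and 3 rose (8.82%), against 7.62% and 6.02% of all genes tested. The genes that fell were Prodh, Got1, Aass, Gpt, Tdo2 and Bckdha, and those that rose were Psph, Psat1 and Asns. The median change of the 34 was -0.19 and that of all genes was -0.01, and 24 of 34 had a negative change. The pregnant and virgin liver arrays did not overlap for 18 of the 34 genes, against 28.0% of all genes. In bulk tissue, fewer cells of a type and less RNA per cell cannot be told apart.

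**Figure D1:**
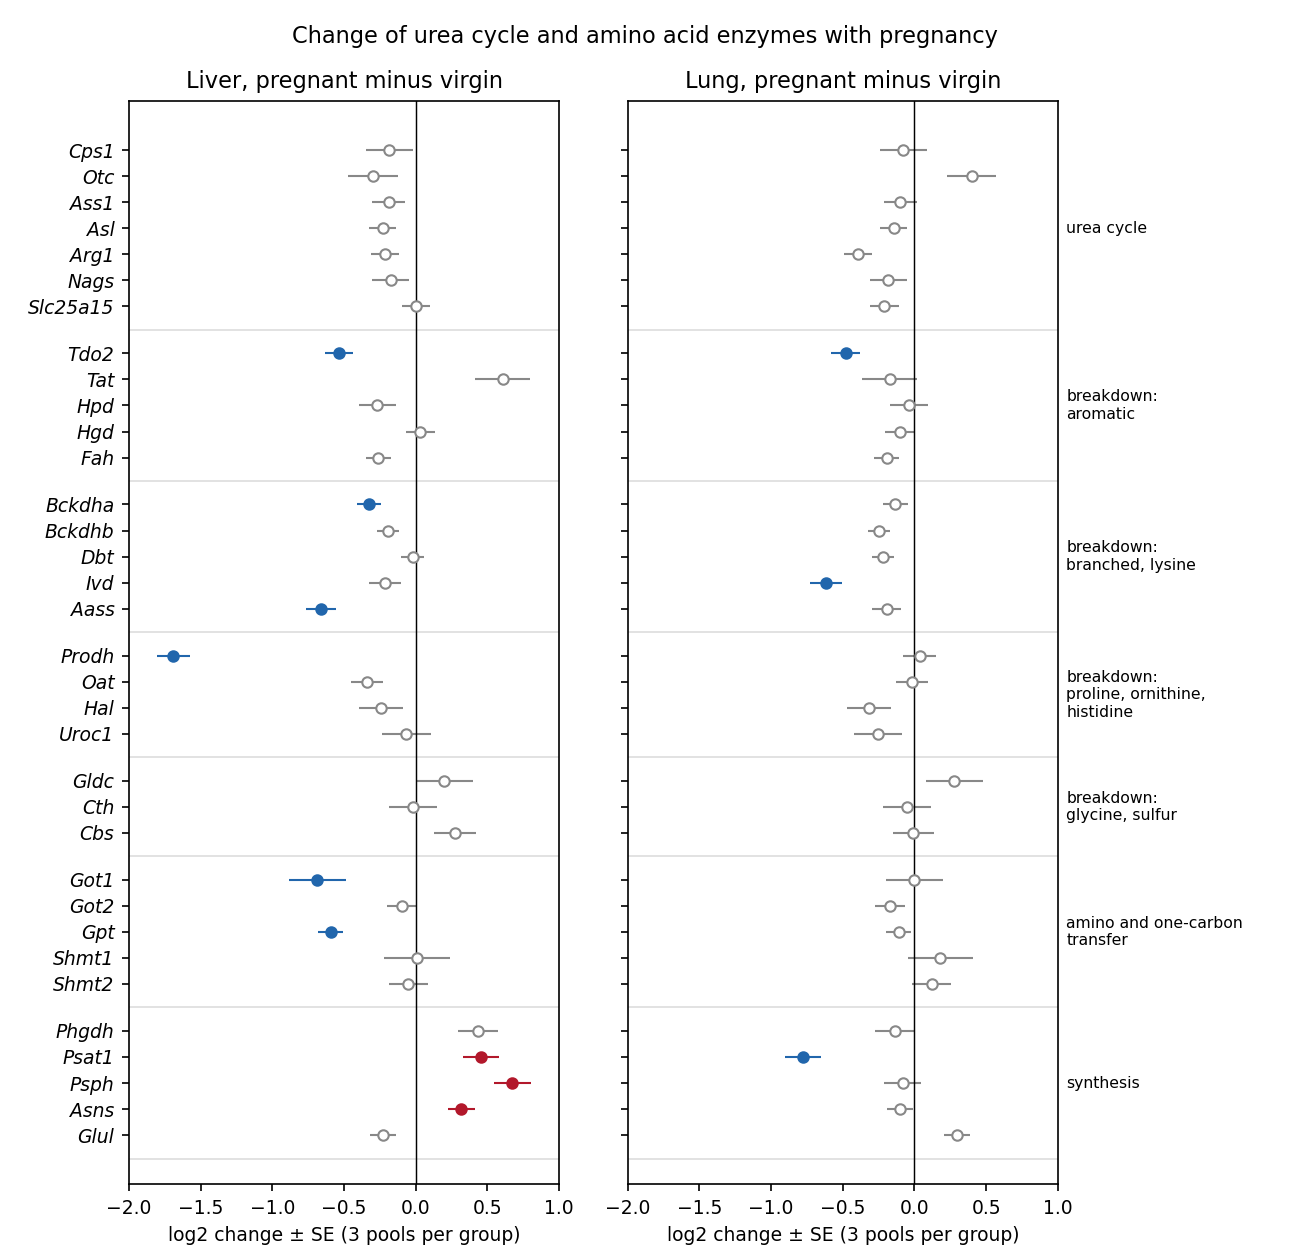
The points give the log2 change (pregnant minus virgin, 3 pools per group) of each of the 34 genes in liver (left) and lung (right), with the standard error of the fit as bars, ordered by role. Filled points passed the test, in blue for lower and red for higher in pregnant mice. In liver the breakdown and transfer genes with filled points lie left of 0 and the synthesis genes right of 0.

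Prodh, which encodes proline dehydrogenase, the mitochondrial enzyme that opens proline breakdown, had the largest change of the 34 genes. Its log2 level was 8.74, 9.15 and 8.80 in pregnant liver, against 10.65, 10.56 and 10.55 in virgin liver (pools 1 to 3). Every pregnant pool lay below every virgin pool by more than a log2 unit. Prodh was 3.23-fold lower (log2 change -1.69 ± 0.12, SE, adjusted p = 2.76e-07). The change was -1.66 within the arrays with spike-in signal and -1.75 within the pair without it. The call held in all 6 fits that left out a liver array.

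Aass, the bifunctional enzyme that opens lysine breakdown, had log2 levels of 9.91, 10.15 and 9.96 in pregnant liver, against 10.72, 10.71 and 10.57 in virgin liver. The groups did not overlap, and Aass was 1.58-fold lower (-0.66 ± 0.10, adjusted p = 0.000614). Tdo2, tryptophan dioxygenase, a hepatocyte enzyme that opens the kynurenine route, had 12.39, 12.41 and 12.42 in pregnant liver, against 12.89, 12.88 and 13.06 in virgin liver. It was 1.45-fold lower (-0.54 ± 0.10, adjusted p = 0.00223), and its other probe sets, fitted on their own, changed by -0.90 and -0.94. Aass and Tdo2 each kept the call without any single liver array. Bckdha, a subunit of the branched-chain keto acid dehydrogenase, was 1.25-fold lower (-0.33 ± 0.09, adjusted p = 0.0210). That call was lost without pregnant pool 1 or 2 or virgin pool 2 or 3, with adjusted p up to 0.0691.

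The other breakdown genes did not pass in liver. Tat, tyrosine aminotransferase, had 11.73, 11.88 and 11.90 in pregnant liver, against 10.98, 11.10 and 11.61 in virgin liver, with a change of 0.61 ± 0.19 and an adjusted p of 0.0530. The groups did not overlap, virgin pool 3 lay well above the other virgin pools, and the change was 0.77 within the arrays with spike-in signal and 0.29 within the pair without it. Tat passed as higher in 7 of the 12 alternative settings, among them the labelling block and both quantile normalizations, and in 1 of the 6 fits without a liver array (virgin pool 3). Oat, which converts ornithine to a proline precursor, changed by -0.34 (adjusted p = 0.0630), and Fah, the last enzyme of tyrosine breakdown, by -0.26 (adjusted p = 0.0614). The remaining 10 were Hpd and Hgd of tyrosine breakdown, the branched-chain enzymes Bckdhb, Dbt and Ivd, Hal and Uroc1 of histidine breakdown, the glycine decarboxylase Gldc, and Cth and Cbs of the route from methionine to cysteine. Their changes ran between -0.27 (Hpd) and 0.28 (Cbs). Over the 17 breakdown genes the median change was -0.22.

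Got1 and Gpt, the aminotransferases for aspartate and alanine in the cytosol, were lower in pregnant liver. Gpt had log2 levels of 10.48, 10.45 and 10.54 in pregnant liver, against 11.10, 11.06 and 11.09 in virgin liver. These groups were each tight and well apart, and Gpt was 1.51-fold lower (-0.59 ± 0.09, adjusted p = 0.000481). The probe set used for Gpt carries a suffix for sequence shared between transcripts, and without such probe sets its change was -0.29 (adjusted p = 0.164). Got1 had 10.14, 10.17 and 10.60 in pregnant liver, against 10.83, 10.77 and 11.35 in virgin liver. In both groups the pool labelled 3, the pool without spike-in signal, was the highest. Got1 was 1.61-fold lower (-0.69 ± 0.20, adjusted p = 0.0356), but the call was lost without pregnant pool 1 or 2 or virgin pool 1 or 3, with adjusted p up to 0.140. Got2, the mitochondrial aspartate aminotransferase, changed by -0.09, and the serine hydroxymethyltransferases Shmt1 and Shmt2 by 0.01 and -0.05, and none of these passed.

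**Figure D2:**
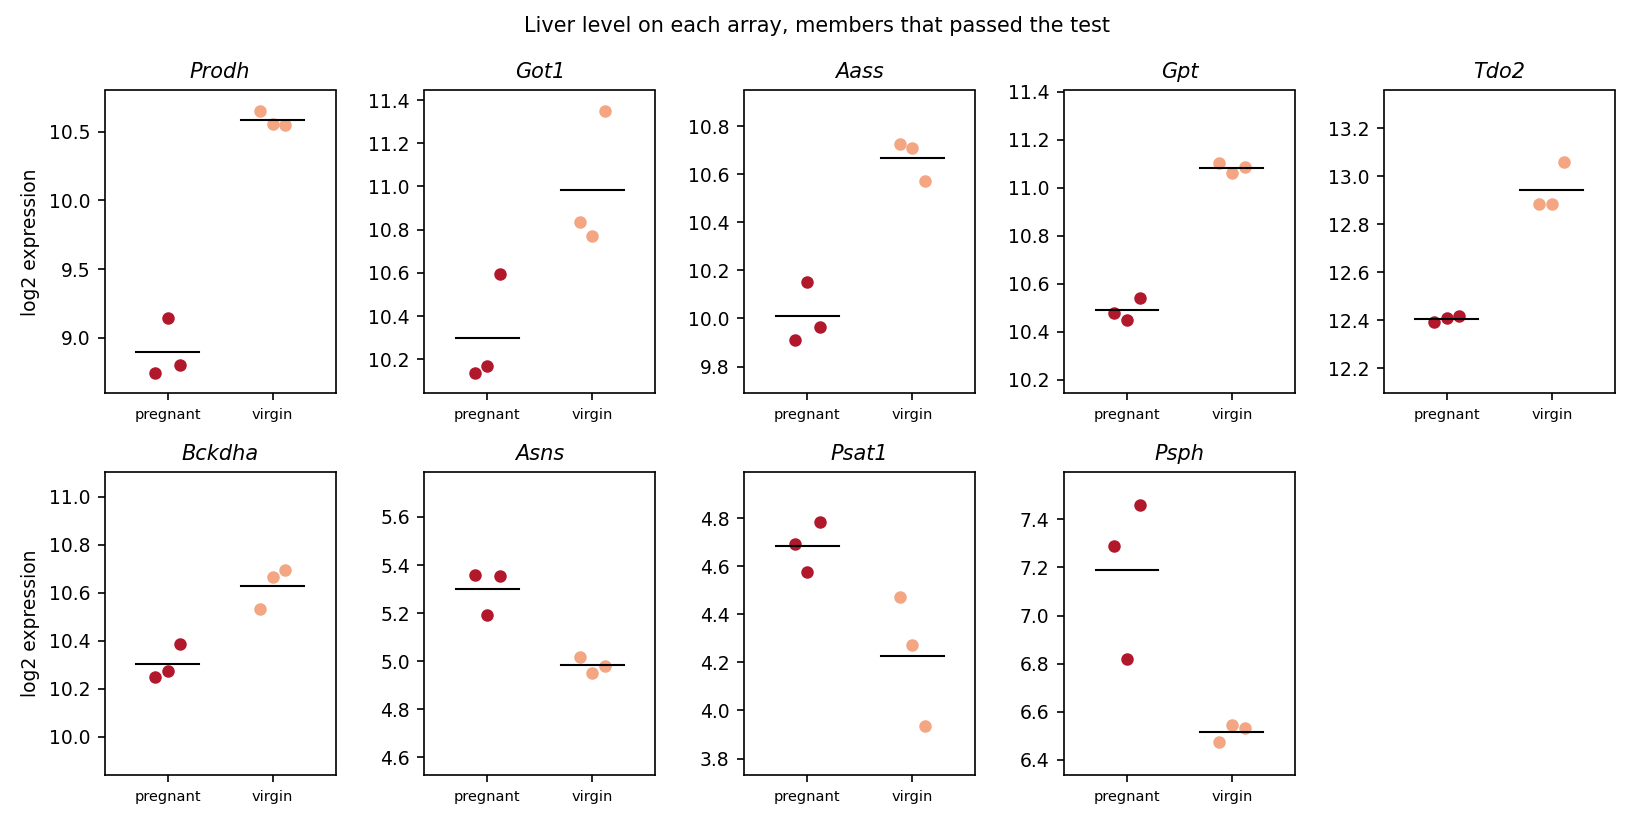
The points are the log2 levels of single pools in pregnant and virgin liver for the 9 genes that passed the test in liver, each panel on a log2 axis of its own. Horizontal bars give group means. The pregnant pools of Prodh lie between 8.74 and 9.15, all below the virgin pools at 10.55 to 10.65.

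Of the 5 synthesis genes 3 rose in pregnant liver, against 6.02% of all genes, and 2, Phgdh and Glul, did not pass. Psph, the phosphatase that completes serine synthesis, had log2 levels of 7.29, 6.82 and 7.46 in pregnant liver, against 6.47, 6.54 and 6.53 in virgin liver. All pregnant pools lay above the virgin pools, and pool 2 was the lowest of them. Psph was 1.59-fold higher (0.67 ± 0.13, adjusted p = 0.00292), and it kept the call without any single liver array. Asns, asparagine synthetase, had 5.36, 5.19 and 5.35 in pregnant liver, against 5.02, 4.95 and 4.98 in virgin liver. Its groups were apart but close, with a 1.25-fold rise (0.32 ± 0.09, adjusted p = 0.0334), and a further probe set, at a level below the array median, changed by 0.47 (adjusted p = 0.0205 over all probe sets). The call was lost in 5 of the 6 fits without a liver array, all but that without pregnant pool 2, with adjusted p up to 0.0989.

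Psat1, the aminotransferase of serine synthesis, had log2 levels of 4.69, 4.57 and 4.79 in pregnant liver, against 4.47, 4.27 and 3.94 in virgin liver. These levels lie around the array median, so that the size of the change is uncertain. Psat1 was 1.37-fold higher (0.46 ± 0.13, adjusted p = 0.0266), by 0.26 within the arrays with spike-in signal and 0.85 within the pair without it. It lost the call without pregnant pool 1 or 3 or virgin pool 2 or 3, with adjusted p up to 0.101. Its other probe set, fitted on its own, changed by 0.50 in liver (adjusted p = 0.0909 over all probe sets). Phgdh, the dehydrogenase that opens serine synthesis, had 8.08, 8.04 and 7.95 in pregnant liver, against 7.44, 7.54 and 7.78 in virgin liver. The pregnant pools all lay above the virgin pools, but Phgdh missed the threshold (0.44 ± 0.14, adjusted p = 0.0543). Its change was 0.57 within the arrays with spike-in signal and 0.17 within the pair without it. Phgdh passed as higher in 5 of 11 alternative settings. Its other probe sets, fitted on their own, changed by 0.59 (adjusted p = 0.00401 over all probe sets), 0.18 and 0.18. In virgin liver the probe set with the change of 0.59 had a mean of 4.45 and another had 4.42, both below the array median. Phgdh had suffixed probe sets only. Glul, glutamine synthetase, had 11.21, 11.18 and 11.07 in pregnant liver, against 11.49, 11.30 and 11.35 in virgin liver, and it did not pass either (-0.23 ± 0.09, adjusted p = 0.116). The liver groups of Glul did not overlap, and it passed as lower in 1 of 11 alternative settings, the trended robust variance. Its other probe set changed by 0.03 in liver. The median change of the 5 synthesis genes was 0.44, and without both arrays that lacked spike-in signal it was 0.29.

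**Figure D3:**
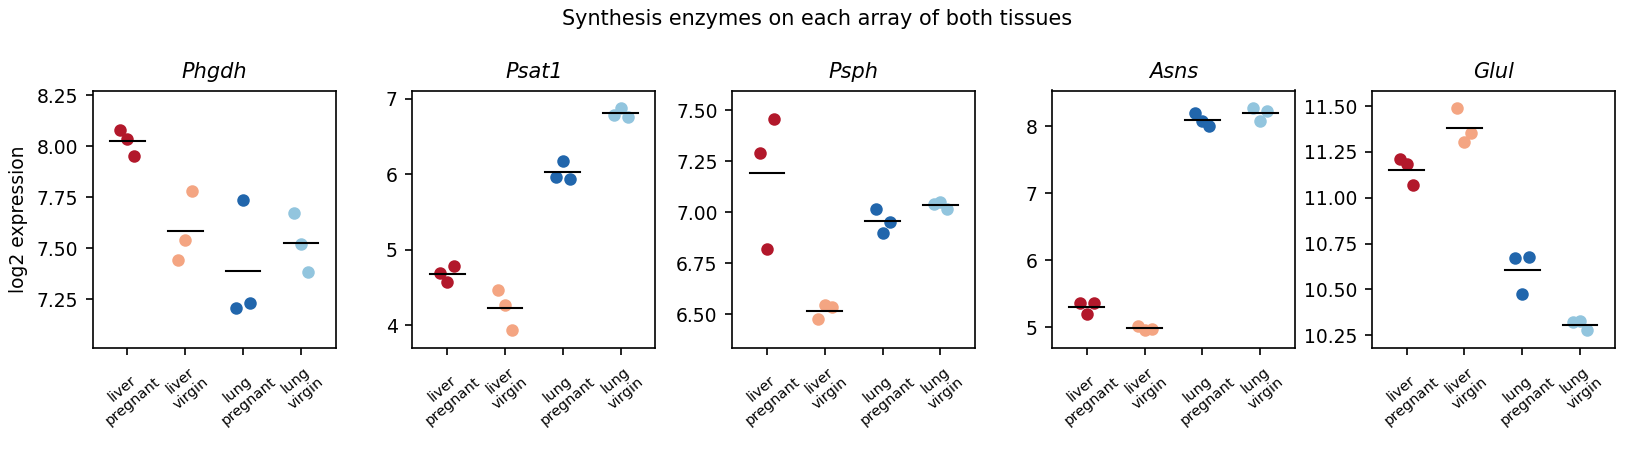
The points are the log2 levels of single pools for the 5 synthesis genes in pregnant and virgin mice, with liver before lung, and horizontal bars give group means. Psat1 is higher in pregnant than virgin liver and lower in pregnant than virgin lung.

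Promoters are shown for the genes that rose in pregnant liver and for Prodh and Got1, which fell, with 2 short elements marked as background. The choice does not follow the size of the change, and the other genes that fell, Aass, Gpt, Tdo2 and Bckdha, are not shown. TGATGNAA is the core of the amino acid response element bound by ATF4 with C/EBP proteins, known from the human ASNS promoter, and CCAAT is the box bound by NF-Y. Each window runs from 250 bases before to 50 after the gene's start in RefSeq on GRCm38.p6 and reads 5′ to 3′ on the gene's strand. Capitals mark matches to TGATGNAA or CCAAT on either strand, in which neighbouring or overlapping matches run together. Of the 34 genes, 28 had a window in the RefSeq table.
Asns, chr6:7693160-7693459, minus strand: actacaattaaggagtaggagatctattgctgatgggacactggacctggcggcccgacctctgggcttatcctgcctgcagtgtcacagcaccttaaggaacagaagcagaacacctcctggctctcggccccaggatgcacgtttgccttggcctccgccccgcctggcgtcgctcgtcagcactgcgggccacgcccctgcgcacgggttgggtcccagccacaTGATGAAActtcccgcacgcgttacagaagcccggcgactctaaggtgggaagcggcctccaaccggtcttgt
Psph, chr5:129787204-129787503, minus strand: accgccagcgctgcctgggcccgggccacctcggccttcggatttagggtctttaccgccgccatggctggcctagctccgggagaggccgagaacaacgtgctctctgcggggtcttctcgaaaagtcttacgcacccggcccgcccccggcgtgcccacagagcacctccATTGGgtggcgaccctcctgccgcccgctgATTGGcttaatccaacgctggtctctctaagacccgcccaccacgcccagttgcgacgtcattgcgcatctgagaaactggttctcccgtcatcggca
Psat1, chr19:15925010-15925309, minus strand: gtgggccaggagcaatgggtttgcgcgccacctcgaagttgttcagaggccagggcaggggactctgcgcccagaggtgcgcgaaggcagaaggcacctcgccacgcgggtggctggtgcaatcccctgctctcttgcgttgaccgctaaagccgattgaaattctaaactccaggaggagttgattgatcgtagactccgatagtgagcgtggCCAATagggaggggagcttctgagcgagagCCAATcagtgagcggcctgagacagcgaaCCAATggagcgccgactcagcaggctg
Prodh, chr16:18089141-18089440, minus strand: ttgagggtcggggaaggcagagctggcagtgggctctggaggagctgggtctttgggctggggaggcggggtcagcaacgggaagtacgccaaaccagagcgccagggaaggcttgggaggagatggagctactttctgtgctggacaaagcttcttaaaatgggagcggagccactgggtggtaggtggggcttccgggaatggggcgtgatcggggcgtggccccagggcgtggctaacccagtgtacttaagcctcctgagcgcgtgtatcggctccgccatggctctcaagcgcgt
Got1, chr19:43524556-43524855, minus strand: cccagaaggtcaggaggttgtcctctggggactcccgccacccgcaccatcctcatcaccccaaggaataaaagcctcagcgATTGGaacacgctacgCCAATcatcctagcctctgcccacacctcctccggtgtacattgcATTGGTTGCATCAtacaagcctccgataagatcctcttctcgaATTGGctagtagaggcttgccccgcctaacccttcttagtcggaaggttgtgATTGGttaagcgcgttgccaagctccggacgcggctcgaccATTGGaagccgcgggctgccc
TGATGNAA occurred in the windows of 2 of the 28 genes, Asns and Got1, that is in 2 of their 31 windows (6.45%), against 3.97% of all 32851 windows. In Asns, which rose, the match lay 23 bases before the start. In Got1, which fell, it lay 102 bases before the start on the opposite strand, among 6 CCAAT matches. CCAAT occurred in 18 of the 31 windows (58.1%), which belong to 17 genes, against 37.4% of all windows, with 3 matches in the Psat1 window shown and 2 in that of Psph. The 17 genes include Aass and Tdo2, which fell and whose windows are not shown. The second Psat1 window and the Prodh window held neither element. A match describes the letters of the window and is not evidence of binding.

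None of the 7 urea cycle genes passed the test in liver (limma, 0 of 7; 2 at an unadjusted p under 0.05, Asl and Arg1), against 13.6% of all genes in either direction, and with 7 genes a count of 0 lies near that share. Their changes ran between -0.30 and 0.00 with a median of -0.19, near the -0.22 of the breakdown genes, and 6 of 7 were negative. Ass1 is counted in these figures and the median is its value, although its probe set gives no usable measure of the gene. Cps1, carbamoyl phosphate synthetase, which commits ammonia to the cycle, had log2 levels of 13.06, 13.06 and 13.00 in pregnant liver, against 13.23, 13.16 and 13.28 in virgin liver. These groups did not overlap, but the change of -0.19 ± 0.16 did not pass (adjusted p = 0.523). Otc, ornithine transcarbamylase, had 12.02, 11.79 and 11.64 in pregnant liver, against 12.20, 12.13 and 12.02 in virgin liver. Its highest pregnant pool met its lowest virgin pool, and the change was -0.30 ± 0.17 (adjusted p = 0.305), while of its other probe sets 1 changed by -0.52 (adjusted p = 0.0103 over all probe sets) and 1 by -0.25 (adjusted p = 0.130). Otc passed as lower with the mean of its probe sets and with suffixed probe sets left out.

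Asl, argininosuccinate lyase, had log2 levels of 11.49, 11.43 and 11.28 in pregnant liver, against 11.75, 11.57 and 11.57 in virgin liver. Arg1, arginase, which releases urea, had 12.94, 12.82 and 12.94 in pregnant liver, against 13.07, 13.05 and 13.22 in virgin liver. For both genes every pregnant pool lay below every virgin pool, and neither passed (-0.23 ± 0.09, adjusted p = 0.135 for Asl, and -0.21 ± 0.10, adjusted p = 0.173 for Arg1). Nags, which makes the activator of Cps1, had 8.65, 8.58 and 8.99 in pregnant liver, against 8.73, 8.98 and 9.03 in virgin liver. Slc25a15, the mitochondrial ornithine carrier, had 11.57, 11.67 and 11.73 in pregnant liver, against 11.70, 11.51 and 11.75 in virgin liver. The groups of these 2 genes overlapped, with changes of -0.17 (adjusted p = 0.428) and 0.00 (adjusted p = 0.992).

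Ass1, argininosuccinate synthetase, had 3.16, 3.45 and 3.28 in pregnant liver, against 3.38, 3.35 and 3.73 in virgin liver. Its only probe set lay below the array median in every liver array, so that it gives no usable measure of the gene, although argininosuccinate synthetase is an abundant enzyme of hepatocytes. For the other 6 genes the 95% intervals of the change, not adjusted over genes, reached down to -0.67 (Otc) and up to 0.21 (Slc25a15). A fall of the size of that of Prodh lies outside all of these intervals, and falls of the size of those of Bckdha lie inside the intervals of Cps1, Otc, Asl, Arg1 and Nags. These intervals use a spread shared by the liver and lung arrays. For Cps1 the standard deviation was 0.03 and 0.06 in pregnant and virgin liver, but 0.27 and 0.37 in pregnant and virgin lung. For Otc it was 0.19 and 0.09 in liver and 0.38 and 0.25 in lung, in the same order. The intervals of Cps1 and Otc thus partly reflect the spread of lung levels below the array median.

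The change with pregnancy differed between liver and lung for 5 of the 34 genes, tested as the change in liver minus the change in lung, against 6.71% of all genes. The value was negative for 3 genes and positive for 2, against 3.34% and 3.37% of all genes. Prodh fell in liver but had 7.14, 7.45 and 7.42 in pregnant lung, against 7.29, 7.33 and 7.28 in virgin lung. Its lung groups overlapped, and the difference of the changes was -1.73 ± 0.16 (adjusted p = 1.76e-05). Psat1 had 5.96, 6.18 and 5.94 in pregnant lung, against 6.78, 6.88 and 6.75 in virgin lung. All pregnant lung pools lay below the virgin pools, and Psat1 was 1.72-fold lower in lung (-0.78 ± 0.13, adjusted p = 0.0167), opposite to its direction in liver. Its other probe set had the same directions but passed in neither tissue, with -0.43 in lung (adjusted p = 0.484 over all probe sets). On the probe set used, the difference of the changes of Psat1 was 1.24 ± 0.18 (adjusted p = 0.000769), with virgin liver at a level where no signal above background is shown. The differences of Prodh and Psat1 passed in all 12 fits that left out an array.

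Psph had 7.02, 6.90 and 6.95 in pregnant lung, against 7.04, 7.05 and 7.02 in virgin lung. Its change in liver exceeded that in lung by 0.76 ± 0.18 (adjusted p = 0.0228). Glul had 10.67, 10.48 and 10.68 in pregnant lung, against 10.32, 10.33 and 10.28 in virgin lung. The lung groups of Glul did not overlap, its change in lung was 0.30 (adjusted p = 0.208), and the difference of changes was -0.53 ± 0.13 (adjusted p = 0.0229). For Gpt that difference was -0.48 ± 0.13 (adjusted p = 0.0362). These 3 differences rested on few arrays. They passed in 8 of 12 fits without an array for Psph and for Glul and in 3 of 12 for Gpt, with adjusted p up to 0.0556, 0.0639 and 0.0976 in that order. Psph lost the call without liver pregnant pool 1, liver virgin pool 1, lung pregnant pool 2 or lung virgin pool 2, and Glul without liver virgin pool 1, lung pregnant pool 1 or 3 or lung virgin pool 3. Gpt kept it only without liver pregnant pool 3, lung pregnant pool 2 or lung virgin pool 3.

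In lung 3 of the 34 genes passed, against 0.594% of all genes. They fell with pregnancy and 0 rose (limma, 2 positive changes at an unadjusted p under 0.05), against 0.335% of all genes for falls and 0.258% for rises. The arrays of the groups did not overlap for 11 of the 34 genes, against 18.4% of all genes. Beside Psat1 these were Ivd and Tdo2, and the median change of the 34 was -0.12. Ivd, isovaleryl-CoA dehydrogenase of leucine breakdown, had 8.53, 8.47 and 8.49 in pregnant lung, against 9.01, 9.22 and 9.11 in virgin lung. The groups were far apart relative to their spread, and Ivd was 1.53-fold lower (-0.62 ± 0.11, adjusted p = 0.0265). Its other probe set, fitted on its own, changed by -0.32 in lung (adjusted p = 0.390 over all probe sets). The call of Ivd was lost with the mean of its probe sets. Tdo2 had 2.96, 3.04 and 2.94 in pregnant lung, against 3.63, 3.46 and 3.28 in virgin lung, all below the array median, where no signal above background is shown. Its change was -0.48 ± 0.10 (adjusted p = 0.0469).

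Marker lists also differed between the lung groups. The summed log2 level of 9 proliferation markers was 8.45 to 8.69 in pregnant and 9.15 to 9.68 in virgin lung, and all 9 had a negative change (median -0.82). Macrophage markers summed to 13.25 to 13.30 in pregnant and 12.93 to 13.04 in virgin lung, and erythroid markers to 10.10 to 10.37 in pregnant and 10.50 to 10.55 in virgin lung. Of the 9, 9 and 7 genes of these lists 0 passed in lung (limma; 6, 3 and 1 at an unadjusted p under 0.05). Their part in the falls of Psat1, Ivd and Tdo2 and in the differences between tissues was not tested.

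The lung calls did not withstand the loss of single arrays. Without lung pregnant pool 1 or lung virgin pool 2, 0 of the 34 genes passed in lung. Ivd kept the call only without virgin pool 1, with adjusted p up to 0.127, and Tdo2 only without virgin pool 3, with adjusted p up to 0.163. Psat1 lost it without pregnant pool 1, virgin pool 2 or virgin pool 3, with adjusted p up to 0.0920. The other 5 called genes of liver that are not named above for lung, Aass, Bckdha, Got1, Gpt and Asns, had lung changes between -0.19 and 0.00, and none passed. Asns had 8.21, 8.08 and 8.00 in pregnant lung, against 8.28, 8.08 and 8.23 in virgin lung, and Phgdh had 7.21, 7.74 and 7.23 in pregnant lung, against 7.67, 7.52 and 7.38 in virgin lung.

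Most of the genes were more abundant in liver than in lung. The list was drawn up as liver enzymes, so this direction is a description. In pregnant mice 30 of the 34 genes were higher in liver than in lung and 2 were lower, against 37.2% and 34.4% of all genes, and in virgin mice 30 were higher and 3 were lower, against 34.4% and 34.3%. The genes lower in liver were Psat1 and Asns in both states and Psph in virgin mice. For 12 of the 34 genes, among them Cps1, Otc, Hpd and Hgd, the mean lung level lay below the array median in pregnant or virgin mice, so that the size of their difference is not given. Among genes with lung levels above it, liver exceeded lung by 4.49 in pregnant and 4.57 in virgin mice for Asl on the log2 scale and by 4.02 and 4.09 for Fah. For Asns liver minus lung was -2.79 in pregnant and -3.21 in virgin mice.

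For Prodh the difference between tissues was smaller in pregnant mice: liver exceeded lung by 1.56 in pregnant and 3.29 in virgin mice. For Psat1, whose level in virgin liver lay below the array median, the sizes are not compared. Psph was 0.24 higher in liver in pregnant mice, which did not pass (adjusted p = 0.114), and liver minus lung was -0.52 in virgin mice (adjusted p = 0.00262). For Phgdh liver minus lung was 0.63 in pregnant mice (adjusted p = 0.00104) and 0.06 in virgin mice (adjusted p = 0.711), but its change with pregnancy did not differ between tissues beyond the threshold (adjusted p = 0.111). The probe sets of Phgdh disagreed on the tissue direction. Another had 4.60 in liver and 7.57 in lung of pregnant mice, and 4.42 and 7.32 in virgin mice. The remaining ones had 5.05 against 4.40 and 5.54 against 5.56 in pregnant mice (liver against lung). The tissue difference given for Phgdh is thus that of a single probe set. Oat was 0.10 higher in liver in pregnant mice (adjusted p = 0.443) and 0.42 higher in virgin mice (adjusted p = 0.00446), and its change did not differ between tissues beyond the threshold either (adjusted p = 0.284).

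Further genes of the same pathways, listed by textbook function, were set beside the 34. Of 50 other breakdown genes 44 were measured, of which 13 fell (29.5%) and 1 rose (2.27%) in pregnant liver, against 7.62% and 6.02% of all genes, with a median change of -0.20. The number that fell was 7 without pregnant pool 2 and 15 without pregnant pool 3, the extremes of the 6 fits without a liver array. Csad, which makes hypotaurine on the route to taurine, was 2.28-fold lower (-1.19 ± 0.16, adjusted p = 0.000169). Its levels were 9.15, 8.81 and 9.06 in pregnant liver, against 10.61, 10.02 and 9.97 in virgin liver. Ppm1k, the phosphatase that activates the branched-chain keto acid dehydrogenase to which Bckdha belongs, was 1.95-fold lower (-0.96 ± 0.12, adjusted p = 8.85e-05). Dhtkd1 and Aadat, which act after Aass in lysine breakdown, changed by -0.80 (adjusted p = 0.000223) and -0.65 (adjusted p = 0.0136). The gene that rose was Gcsh, of the glycine cleavage system, by 0.29 (adjusted p = 0.0455), a gene named after its values were seen. The call of Gcsh was lost in each of those 6 fits.

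Counts by amino acid take the breakdown genes described first together with the further ones. They thus repeat the falls of Bckdha, Aass, Tdo2 and Prodh and are not separate evidence for these. By amino acid, 7 of 19 branched-chain genes, 3 of 5 lysine genes and 3 of 11 methionine and sulfur genes fell in pregnant liver. So did 2 of 6 tryptophan genes and 1 of 4 genes for proline, ornithine and glutamate, which was Prodh. In these groups 0 rose, and 7.62% of all genes fell. Of 5 glycine and glyoxylate genes 1 fell and 1 rose. The branched-chain count rested on single arrays: it was 1 without pregnant pool 2, 3 without pregnant pool 1 or virgin pool 2, and 4 without virgin pool 3. Of the 7 genes for phenylalanine and tyrosine and the 4 for histidine, 0 passed (limma; 2 and 1 at an unadjusted p under 0.05). The grouping by amino acid was made after the values were seen. Of the 4 further urea cycle genes 0 passed (limma; 1 at an unadjusted p under 0.05): Car5a, which supplies bicarbonate to Cps1, changed by -0.42 (adjusted p = 0.0593) and Slc25a13, the aspartate carrier, by -0.13 (adjusted p = 0.460). Of 10 further genes near synthesis 6 were measured, of which 1 rose and 1 fell. Mthfd2, of mitochondrial one-carbon metabolism, was 1.78-fold higher (0.83 ± 0.13, adjusted p = 0.000723), and Gpt2, the mitochondrial alanine aminotransferase, changed by -0.60 (adjusted p = 0.00220). Mthfd2 had 6.68, 6.48 and 6.94 in pregnant liver, against 5.60, 5.91 and 6.08 in virgin liver. In lung 0 genes of these 3 lists passed (limma; 13 at an unadjusted p under 0.05, all of them breakdown genes).

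**Figure D4:**
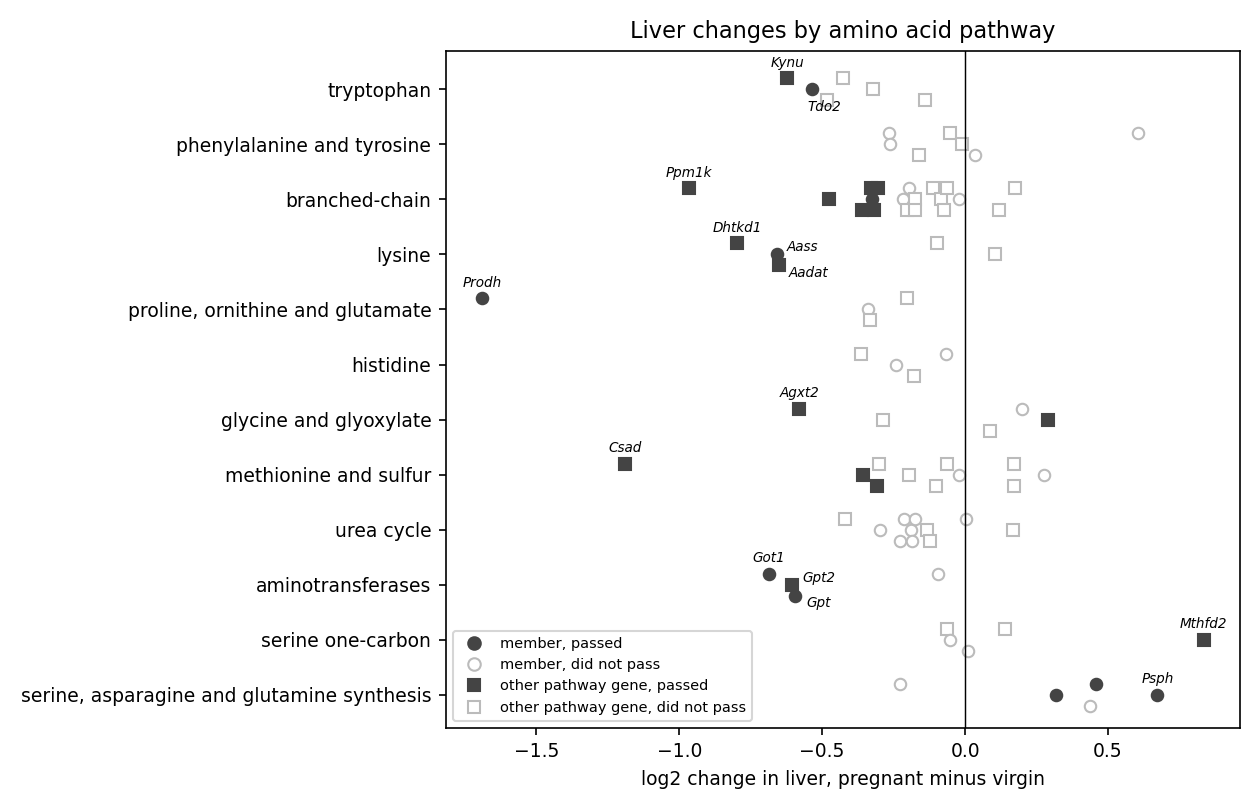
Each point is a gene's log2 change in liver (pregnant minus virgin), by amino acid pathway. Circles are the 34 genes and squares are further genes of the pathways; filled points passed the test. The filled points with names have a change of at least 0.5, and in the lysine and branched-chain rows every filled point lies left of 0.

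Levels of other cell types were set beside the liver results. Of 9 proliferation markers 3 rose, against 6.02% of all genes, and their summed log2 level was 9.17 to 9.73 in pregnant and 8.26 to 9.43 in virgin liver, which overlap. Of 12 pancreas acinar markers 4 rose and 2 fell, against 6.02% and 7.62% of all genes, with changes between -1.35 and 3.42. Their summed level was 10.23 to 10.58 in pregnant and 10.37 to 10.64 in virgin liver, which overlap. Their mean log2 level was 5.36 to 5.65 in pregnant and 5.04 to 5.18 in virgin liver, which do not. Of 7 erythroid and 9 macrophage markers 1 rose and 1 fell in each list, and of 5 cholangiocyte markers 0 passed (limma; 2 at an unadjusted p under 0.05). Erythroid markers summed to 8.95 to 9.27 in pregnant and 8.59 to 8.65 in virgin liver, which do not overlap. The sums of the other lists overlapped. They were 11.68 to 12.02 in pregnant and 11.89 to 12.05 in virgin liver for macrophage markers, and 6.79 to 7.21 and 7.13 to 7.38 for cholangiocyte markers. Of 8 genes typical of periportal hepatocytes, where most urea cycle and amino acid breakdown enzymes are known to be highest, 5 fell and 1 rose, against 7.62% and 6.02% of all genes, with a median of -0.57. Sult5a1, Ctsc and Cyp2f2 changed by -0.91, -0.73 and -0.71, and Aldh1b1 by 1.60. Of 12 pericentral genes, a zone that holds Glul, 2 rose (Lhpp by 1.07 and Slc1a2 by 0.76) and 1 fell (Nkd1, -0.55), with a median of -0.13. In 5 of the 6 fits without a liver array, all but that without virgin pool 2, and without both arrays that lacked spike-in signal, the call of Nkd1 was lost. The part of these markers in the changes of the enzymes was not tested.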

How the data were processed

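The 12 samples, 3 per group and each a pool of RNA from 2 mice, were hybridised to one-colour Affymetrix mouse arrays. Per the labels' protocols, frozen tissue was ground, and column-purified RNA was labelled with biotin. The deposited values are log2 levels, which the authors computed with RMA (affy package, no versions given), per the submitters' processing notes; which arrays were normalized together is not given in the sources used here.

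Of 45037 probe sets other than 64 controls, 34945 had a single symbol, 932 several and 9160 none in the platform annotation; only the first were used. The probe set with the highest mean stood for its gene, which gave 18193 genes. The deposited log2 values of all 12 arrays were fitted with 4 group means in limma 3.58.1 (R 4.3.3), with 8 residual and 5.60 prior degrees of freedom, two-sided, with Benjamini-Hochberg adjustment over all genes and a threshold of 0.05. No filter on low values was used, so the 34 measured genes were all tested. Errors are standard errors of that fit.

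The genes, lists, tests and promoter elements were chosen with earlier results of these data known. Values of every array are given for genes that passed in liver or lung with a log2 change of at least 0.5 and for all urea cycle and synthesis genes. From each further list up to 4 genes that passed with the largest liver change are named, or up to 2 with the smallest p. Alternatives changed 1 choice at a time: arrays fitted, a filter on dim genes, the mean of all probe sets, suffixed probe sets left out, median centring, quantile normalization, trended robust variance, array weights, a labelling block by spike-in signal, pool number as a block, and leaving out each array or both arrays without spike-in signal. Fits of each probe set on its own were added after the data were seen. The fit was tested on simulated data. Among the 34 genes, 15 had several probe sets; in liver 7 of their 25 additional ones changed with the opposite sign, 0 of them past the threshold.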

Additional observations from a re-analysis of the deposited data

Results flagged for a closer look

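For 5 genes the change with pregnancy in liver differed from that in lung by a test of the difference itself (limma, adjusted over all genes). The change in liver minus that in lung was -1.73 for Prodh, -0.48 for Gpt and -0.53 for Glul. It was 1.24 for Psat1, whose level in virgin liver lay below the array median, and 0.76 for Psph. The adjusted p was 1.76e-05 for Prodh, 0.0362 for Gpt, 0.0229 for Glul, 0.000769 for Psat1 and 0.0228 for Psph. In Psat1 the pregnant pools lay above the virgin pools in liver and below them in lung, and Glul stood the other way round. Groups of 3 arrays are too small for a test of single outlying samples.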

How the results depend on the processing

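The number of the 34 genes that passed in liver was 9, and it was 14 with a trended variance and robust moderation, which held all 9. It was 6 with array weights, where Got1, Psat1 and Asns lost their calls. It was also 6 without both arrays that lacked spike-in signal. There Bckdha, Got1, Psat1 and Asns lost their calls, and Tat, a breakdown gene, passed as higher. It ran from 5 (without liver pregnant pool 1) to 10 when single arrays were left out. Prodh, Aass, Tdo2 and Psph passed in liver in every alternative run. The count in lung was 3, and it was 1 with the mean of all probe sets, 1 with suffixed probe sets left out and 0 to 2 without single arrays. The count for the difference between tissues was 5, and it was 2 with suffixed probe sets left out (Gpt lost its call, and Psat1 and Glul were not measured, being 2 of the 4 genes with suffixed probe sets only), 2 without both arrays that lacked spike-in signal and 2 to 5 without single arrays. Between tissues it was 32 in pregnant mice (32 to 33) and 33 in virgin mice (33 to 33). The median change in liver was -0.19 for urea cycle genes (-0.24 to -0.16 without single arrays), -0.22 for breakdown genes (-0.27 to -0.16) and 0.44 for synthesis genes (0.32 to 0.44), and the last was 0.29 without both arrays that lacked spike-in signal. The change of Tdo2 in lung was 0.0219 on another probe set taken on its own. The cause of these shifts was not tested.

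The deviations of pools with the same number were weakly correlated over all genes, from -0.11 to 0.11. Such correlations cannot show whether these pools shared mice or handling, and pool 3 of both liver groups lacked spike-in signal. With pool number as a block 8 genes passed in liver, 2 in lung and 5 for the difference between tissues, and Got1 in liver and Tdo2 in lung lost their calls. Low signal limits Ass1 in liver, Psat1 in liver and Tdo2 in lung, whose levels lay near or below the array median.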

Other observations

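Genes that regulate amino acid metabolism and known targets of the amino acid response were also measured. Of 11 measured regulators of hepatic amino acid metabolism 2 fell in pregnant liver and 0 rose, against 7.62% and 6.02% of all genes. The number that fell was 3 without pregnant pool 2, 0 without virgin pool 1 and 1 without any other single liver array, so nothing is read from it. Nr3c1, the glucocorticoid receptor, changed by -0.37 ± 0.09 (limma, adjusted p = 0.0122), and Klf15, a transcription factor known in mouse for its role in amino acid breakdown, by -0.42 ± 0.13 (adjusted p = 0.0425). The change of Klf15 was -0.25 within the arrays with spike-in signal and -0.75 within the pair without it. Of 11 measured targets of ATF4 outside the synthesis genes 2 rose and 0 fell, against 6.02% and 7.62% of all genes. Only 1 rose without pregnant pool 2, virgin pool 1 or virgin pool 3, and without both arrays that lacked spike-in signal. Ddit4, an inhibitor of mTORC1, rose by 0.77 ± 0.15 (adjusted p = 0.00355) and Vldlr, a lipoprotein receptor, by 0.45 ± 0.12 (adjusted p = 0.0224). Atf4 itself changed by 0.14 (adjusted p = 0.535). Medians were -0.15 for the regulators and 0.13 for the ATF4 list, against -0.01 for all genes.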
